A study of Mus musculus with 16 samples.

Results

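The 4 arrays described here hold the miRNAs of wild-type (WT) mouse embryonic fibroblasts (MEFs) at passage 3 (P3), the earlier of the passages sampled. They were chosen by their labels alone, with no measured value: WT genotype, passage 3, grown in 20% or 3% O2, with 2 replicates at each oxygen level, 4 of the 16 arrays of the series. The other arrays hold WT MEFs at passage 7 and MEFs that lack the DNA repair gene Ercc1 (Ercc1-/-) at both passages and both oxygen levels, made to follow cellular senescence. The P3 WT cells carried no altered allele and received no agent other than the oxygen level. All cells had a mixed FVB/n and C57Bl/6 background. By the study's methods they were primary cells from mid-gestation embryos, and 2 independent cell lines were profiled. The labels do not tie a replicate number to a line, so the error given with each value below is the spread of 4 arrays over lines, slides and oxygen levels together. A MEF culture starts from a minced embryo, so cells of other tissues can persist at early passage, and in bulk RNA fewer cells of a type and less RNA per cell cannot be told apart.

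A miRNA is cut from a hairpin precursor, and usually 1 strand of the hairpin (the guide) is loaded into an Argonaute protein while the other (the star strand, marked * in older names) is degraded. The loaded miRNA pairs with target mRNAs mainly through bases 2 to 8, its seed, so miRNAs with the same seed form a family with overlapping targets. Many hairpins lie in genome clusters that are transcribed together. Fibroblasts are known for high levels of miR-21, the let-7 family, miR-125b and the miR-199/214 group, while other lineages carry miRNAs of their own, such as miR-1 in muscle, miR-122 in liver and the miR-200 family in epithelium.

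The sequences below are those that the composition of these cells turns on, with the seed in capitals. They are RefSeq mature sequences (GRCm38.p6), written 5′ to 3′. The first group holds leading miRNAs outside the let-7 family, each with a different seed.
miR-21: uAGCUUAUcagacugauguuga
miR-125b-5p: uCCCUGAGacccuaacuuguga
miR-199a-3p: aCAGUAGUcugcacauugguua
miR-199a-5p: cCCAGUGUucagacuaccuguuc
miR-22: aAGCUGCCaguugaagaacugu
miR-24: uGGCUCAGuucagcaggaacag
miR-23a: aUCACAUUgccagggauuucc
miR-27a: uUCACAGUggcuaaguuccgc
miR-214: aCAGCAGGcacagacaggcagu
The second group shows the shared seed of the let-7 family, which as a whole was the brightest.
let-7a: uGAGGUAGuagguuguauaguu
let-7c: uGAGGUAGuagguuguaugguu
let-7e: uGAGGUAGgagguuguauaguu
let-7f: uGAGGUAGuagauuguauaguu
let-7i: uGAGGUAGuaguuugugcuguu
The last group holds the miRNA that differed most between the oxygen levels, and 2 miRNAs that share the seed of the p53-induced miR-34 family.
miR-210: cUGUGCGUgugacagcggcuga
miR-34a: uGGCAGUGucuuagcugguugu
miR-34b-5p: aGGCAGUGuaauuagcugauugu
Counting from 1 at the 5′ end, let-7a differed from let-7c at a single base (A19G), from let-7f at 1 base (G12A) and from let-7e at 1 base (U9G). How far such probes hybridise to one another's targets was not tested. Where they do, the signal of a single let-7 member includes that of others, and the family sum counts a molecule more than once. Of the 611 mouse miRNAs on the array, 333 matched 1 mature sequence in RefSeq, among them 97 of the 121 miRNAs above background on all 4 arrays.

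Each array carried 611 mouse miRNAs with 20 spots each, 39 miRNAs of mouse viruses and 434 negative control spots. The signal of a miRNA is the scanner software's background-corrected intensity, averaged over spots and then over the miRNA's probes. A miRNA was taken as above background when a share of at least 0.5 of the spots of 1 of its probes carried the software's well-above-background mark. The summed mouse signal above background was 115767 and 28336 for replicates 1 and 2 in 20% O2, and 102978 and 72583 in 3% O2. Replicate 2 in 20% O2 was thus the dimmest array. Across the 121 miRNAs that every one of these arrays detected, its signals had Spearman correlations of 0.875 to 0.922 with the other arrays, against 0.931 to 0.964 among the other 3. These are correlations across miRNAs of arrays that share their probes, given as a description. Replicate numbers, slides and scans coincided, and no mouse spot was saturated.

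Of the 611 mouse miRNAs, 240 and 132 were above background on the 20% O2 arrays (replicates 1 and 2), and 250 and 204 on the 3% O2 arrays. On all 4 arrays 121 miRNAs (19.8%) were above background, 138 more on 1 to 3 arrays, and 352 (57.6%) on none. The 83 miRNAs above background on exactly 3 arrays were in every case missing from 20% O2 replicate 2, and without that array the count on all arrays was 204. The control for this count is the probes for viral miRNAs, which no mouse cell encodes: 4 and 2 of 39 were above background in 20% O2, and 4 and 3 in 3% O2. The brightest viral miRNA had a signal of 121.9 and 44.4 in 20% O2 and of 100.4 and 72.8 in 3% O2. When a mouse miRNA also had to be brighter than it, 62 miRNAs remained on all 4 arrays and 99 on any. Dim miRNAs among the 121 are therefore detected by the software's mark only, with signals that probes for viral miRNAs also reached.

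The detected set leaned to the miRNAs that were named early. Among let-7 and miR-1 to miR-199, 72 of 201 were above background on all 4 arrays (35.8%), against 28 of 135 from miR-200 to miR-399 (20.7%), 16 of 176 from miR-400 to miR-699 (9.09%) and 5 of 99 from miR-700 on (5.05%). The array design moved with detection as well. Of the miRNAs with 2 different probes, 115 of 330 were above background on all 4 arrays, against 4 of 264 of those with 4 probes, and those with 2 probes held 98.7% of the signal. The part of the probe design in these counts was not tested.

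The signal was concentrated in a few miRNAs. Each share below is a miRNA's part of the summed mouse signal above background on the same array. The 10 miRNAs of highest mean share held 52.6% and 62.0% in 20% O2 (replicates 1 and 2) and 51.1% and 53.9% in 3% O2, a mean of 54.9% ± 4.84 (SD, n = 4). Between 6 and 10 miRNAs reached 50% of the signal on an array, and between 43 and 61 reached 90%. The 25 highest held 76.1% ± 4.09 and the 50 highest 88.6% ± 2.11 (SD, n = 4). No miRNA that was missing from an array had a mean share over 0.0829%, so the miRNAs that came and went between arrays added little signal. The same 6 miRNAs were among the 10 highest on every array, and 14 were so on at least 1.

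**Figure D1:**
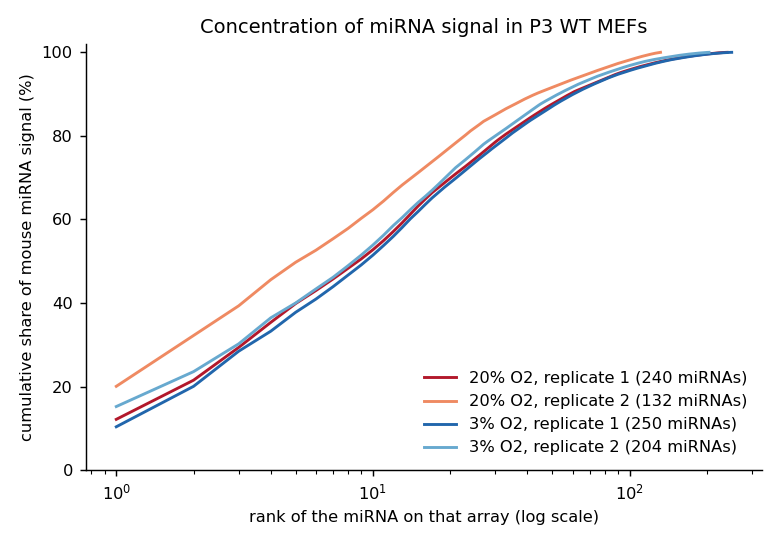
Cumulative share of mouse miRNA signal (%, vertical axis) against the rank of the miRNA on that array (log scale), 1 line for each P3 WT array. All 4 lines pass 50% within the first 10 miRNAs, and the line of 20% O2 replicate 2 lies highest, with 132 miRNAs above background.

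A rank of signal is not a rank of molecules, since probes bind with different strength. The brightest probe of a miRNA exceeded its dimmest by a median of 2.64-fold across 117 miRNAs that had several probes and were detected on every P3 WT array (quartiles 1.78 and 3.57). The gap was 11.3-fold for miR-125b-5p and 1.33-fold for miR-24. Neighbours in the order below that lie closer than this are not ordered by these data.

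miR-21, a miRNA that is abundant in fibroblasts and acts on growth and fibrosis pathways, had the highest mean share. It held 12.1% and 12.2% in 20% O2 (replicates 1 and 2), and 10.4% and 15.2% in 3% O2, a mean of 12.5% ± 2.01 (SD, n = 4). Its processed signal was 14065, 3443, 10681 and 11043 on the same arrays. It had rank 1 on 3 arrays and rank 2 on 20% O2 replicate 2. Its hairpin gene Mir21a lies within the protein-coding gene Vmp1 on chromosome 11.

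miR-720 came next by mean share, through its value on 1 array. It held 7.85% and 20.1% in 20% O2, and 8.41% and 6.66% in 3% O2, so that it had rank 1 on 20% O2 replicate 2 and rank 3 on the other 3 arrays. This sequence was later withdrawn from the miRNA registry because it derives from a transfer RNA, and no hairpin gene for it was found in the RefSeq table. Its mean of 10.74% ± 6.25 (SD, n = 4) had the largest spread of the 25. Without miR-720 the 10 highest held 51.0% and 54.7% in 20% O2, and 49.2% and 53.1% in 3% O2.

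miR-125b-5p, which targets pro-apoptotic and p53-pathway mRNAs, held 9.37% and 7.13% in 20% O2, and 9.68% and 8.36% in 3% O2. Its mean was 8.63% ± 1.15 (SD, n = 4), and it had rank 2 on 3 arrays and rank 3 on 20% O2 replicate 2. Its shares at the 2 oxygen levels overlapped. miR-199a-3p, a marker of mesenchyme, held 5.99% and 6.25% in 20% O2, and 4.79% and 6.22% in 3% O2, and had rank 4 on every array. miR-22, which acts on cell cycle and chromatin regulators, held 4.50% and 4.17% in 20% O2, and 4.52% and 3.55% in 3% O2. It had rank 5 on every array.

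The next miRNAs lay close together. By mean share they were miR-199a-5p (2.70%), let-7i (2.66%), let-7a (2.62%), miR-199b* (2.59%) and let-7c (2.47%), each with an SD of 0.26 to 0.54 (n = 4), which is larger than the steps between them. The remaining 15 of the 25 highest ran from miR-130a (2.18% ± 0.26) to let-7e (0.78% ± 0.21). Between them stood let-7b, let-7f, miR-29a, miR-24, miR-26a, miR-23a, miR-214, let-7d, miR-709, miR-27a, miR-23b, miR-34a and miR-99a. miR-29a, which targets collagen mRNAs, held 1.86% ± 0.35, and miR-26a, which targets the chromatin regulator Ezh2, held 1.77% ± 0.64. The latter fell into 2.18% and 2.41% on the arrays of replicate 1 and 1.02% and 1.46% on those of replicate 2. This split went by replicate number, with which slide and scan coincide, and not by oxygen.

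**Figure D2:**
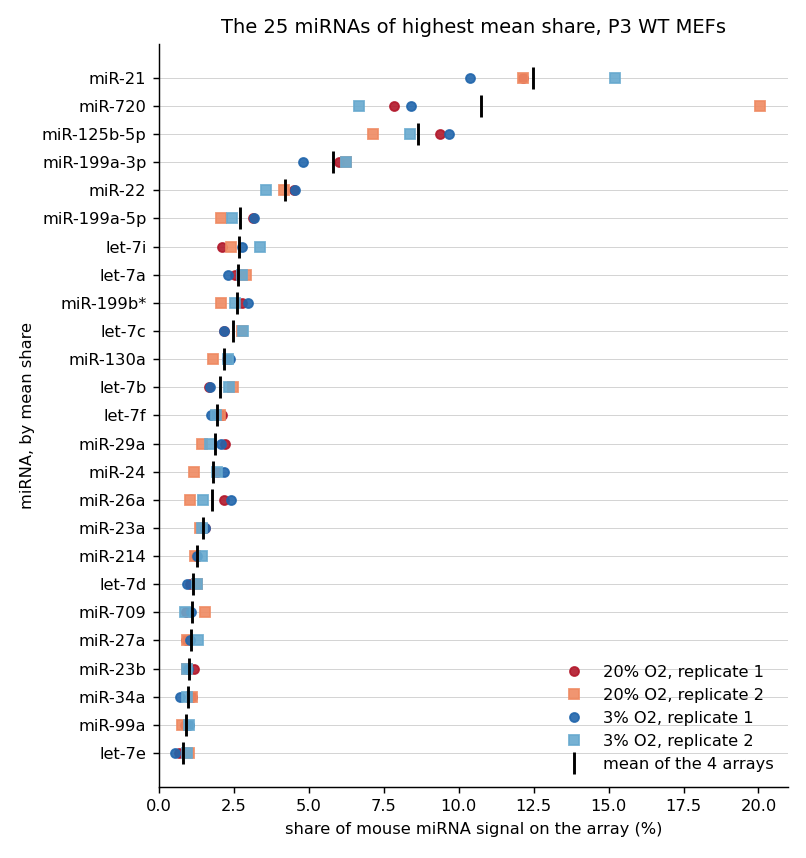
Share of mouse miRNA signal (%, horizontal axis) of the 25 miRNAs of highest mean share (vertical axis) on each P3 WT array (points, coloured by array) with the mean of the 4 arrays (black bars). The spread is widest for miR-720, where 20% O2 replicate 2 stands at 20.1% and the other arrays at 6.66% to 8.41%. The points of miR-21 run from 10.4% to 15.2% and those of miR-26a from 1.02% to 2.41%.

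Summed by family, let-7 held the most signal. The let-7 family, which represses Lin28, Ras and Hmga2 and accumulates as cells differentiate, had all 9 of its members above background on all 4 arrays (let-7a to let-7g, let-7i and miR-98). Together they held 13.0% and 15.6% in 20% O2 (replicates 1 and 2), and 12.8% and 16.2% in 3% O2, a mean of 14.4% ± 1.74 (SD, n = 4). Both arrays of replicate 2 were above both of replicate 1, while the oxygen levels overlapped.

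The miR-199 miRNAs (miR-199a-3p, miR-199a-5p and miR-199b*) were summed by name and are not a single seed family. The arms of miR-199a have different seeds, with 5.81% for miR-199a-3p and 2.70% for miR-199a-5p. The sum was 11.1% ± 0.62, with a smaller SD than let-7 or the miR-125 family. Its 4 values were 11.9% and 10.4% in 20% O2, and 10.9% and 11.2% in 3% O2. In RefSeq the arms named miR-199a belong to Mir199a-1 on chromosome 9 and Mir199a-2 on chromosome 1, and Mir199b lies on chromosome 2. Loci were matched by name, so whether Mir199b yields an arm of the same sequence was not examined. The 3 hairpins lie inside Dnm2, Dnm3 and Dnm1, the genes of the dynamin family. The miR-125 family held 8.92% ± 1.11, nearly all of it miR-125b-5p, with miR-125a-5p at 0.28%.

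Below these, no family exceeded 3% in the mean. The miR-29 family held 2.71% ± 0.54, miR-23 held 2.46% ± 0.17, the family of miR-130 and miR-301 held 2.36% ± 0.30, and miR-15/16, which restrains the cell cycle, held 2.16% ± 0.25 with all 6 members on all 4 arrays. The miR-26, miR-99/100, miR-27 and miR-30 families held 2.03%, 1.65%, 1.51% and 1.05%. All 5 miR-30 members were above background on all 4 arrays. The proliferation-linked family of miR-17, miR-20, miR-93 and miR-106 held 0.22% ± 0.03. Its members miR-106b, miR-20a and miR-93 were above background on all 4 arrays, while miR-17 itself was so on none, with signals from -3.60 to 1.49. From the same hairpin cluster on chromosome 14, miR-19b was above background on all 4 arrays with a mean share of 0.38%, at place 46 by mean share. It also has a copy on the X chromosome. The part of the probes in the gap between miR-17 and its neighbours was not tested.

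Grouped by RefSeq seed rather than by name, the 191 matched miRNAs above background on any array carried 145 different seeds, of which 121 were found in 1 miRNA only. The 5 seeds of highest share (let-7, miR-21, miR-125, miR-199a-3p and miR-22) held 45.8% of the signal. The shared seed added miR-721 to miR-130a, miR-130b and miR-301a, whose sum of 2.40% stayed within the SD of the family without it.

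**Figure D3:**
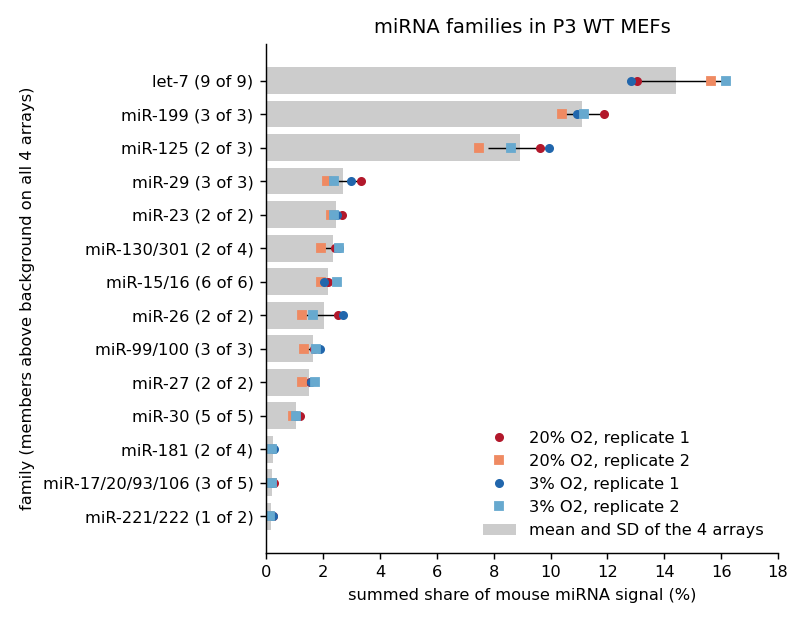
Summed share of mouse miRNA signal (%, horizontal axis) of 14 miRNA families (vertical axis, with the members above background on all 4 arrays out of those on the array). Families were grouped by name, and miR-199 joins arms with different seeds. Bars and lines give the mean and SD of the 4 P3 WT arrays and points the arrays; let-7 (14.4%), miR-199 (11.1%) and miR-125 (8.92%) stand above 5%, the rest under 3%.

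The brightest genome clusters carried the same families. Hairpin genes within 10 kb of each other on GRCm38.p6 were taken as a cluster, and a miRNA with several hairpins was counted in each of its clusters, since the array cannot tell its sources apart. Of the 121 miRNAs above background on all 4 arrays, 118 matched a hairpin gene and 71 had a hairpin in a cluster. Of the 337 matched miRNAs above background on none, 194 had one, so hairpins in clusters were common among detected and undetected miRNAs. The array covered 75 clusters, of which 34 had a member above background on all 4 arrays and 27 had no member above background on any.

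The cluster of highest summed share was Mir199a-2 with Mir214 on chromosome 1, inside Dnm3 and the noncoding Dnm3os, a locus active in mesenchyme. Its miRNAs held 10.4% and 9.52% in 20% O2 (replicates 1 and 2), and 9.23% and 10.1% in 3% O2. miR-214 supplied 1.28% ± 0.11 of this and belongs to that hairpin alone. The cluster Mirlet7a-1, Mirlet7f-1 and Mirlet7d on chromosome 13 held 5.70% ± 0.57, and Mirlet7b with Mirlet7c-2 on chromosome 15 held 4.53% ± 0.79. Mir23a, Mir27a and Mir24-2 on chromosome 8 held 4.33% ± 0.61, and their copies Mir23b, Mir27b and Mir24-1 on chromosome 13 held 3.27% ± 0.60, with miR-24 common to both. The pair Mir99a and Mirlet7c-1 on chromosome 16 held 3.36% ± 0.35 (SD, n = 4 for each).

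A further set was picked after its values were seen. It was the 2 large hairpin clusters, 55 hairpins in all, of the imprinted region of chromosome 12 between Dlk1 and Dio3, where the miRNAs are expressed from the maternal chromosome. The array measured 72 of their miRNAs, of which 18 were above background on all 4 arrays (25%, against 19.8% of all 611), 26 on 1 to 3 and 28 on none. A smaller cluster inside Rian in the same region (Mir341, Mir1188 and Mir370) was not counted, and none of its 3 measured miRNAs was above background on all 4 arrays. The 2 clusters held 5.08% and 2.51% in 20% O2, and 6.03% and 4.82% in 3% O2, a mean of 4.61% ± 1.49 (SD, n = 4). The leading members were miR-494 (0.65%), miR-127 (0.58%) and miR-379 (0.42%). Detection in these clusters moved with the brightness of the array, with 43 and 18 miRNAs above background in 20% O2 and 43 and 39 in 3% O2. miR-494 itself ranged from 0.12% on 20% O2 replicate 2 to 1.08% on 3% O2 replicate 1.

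Other large clusters had few miRNAs above background on all 4 arrays. Over all 611 mouse miRNAs, 19.8% were above background on all 4 arrays and 57.6% on none. The cluster of miR-466, miR-467 and miR-669 within Sfmbt2 on chromosome 2 had 1 of 34 measured miRNAs (miR-669f) above background on all 4 arrays and 26 on none. The X-linked cluster from Mir743 to Mir465, known from testis, had 24 of 25 on none. The part of the probes in these counts was not tested.

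Few star strands were above background on all 4 arrays. Of the 115 star miRNAs on the array, 5 were so (miR-199b*, miR-140*, miR-299*, miR-31* and miR-483*), and 83 were above background on none. Over all 611 mouse miRNAs, 19.8% were above background on all 4 arrays and 57.6% on none. The part of the probes in these counts was not tested. All star miRNAs together held 3.79% ± 0.76 of the signal (SD, n = 4, range 2.75% to 4.57%), and without miR-199b* they held 1.20%. Which arm the array's miR-199b* stands for was not settled here, so the first sum rests on its name. miR-199b* had no partner strand measured under its own name, so it was in none of the pairs below.

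The strands of a hairpin are read by different probes, so a ratio of their signals is not a ratio of molecules, and its SD covers the arrays and not the probes. The array carried 112 pairs of a guide and its star strand. The guide was above background on all 4 arrays in 58 pairs. In 35 of these the star was above background on none, as were 83 of the 115 star miRNAs and 57.6% of all 611 mouse miRNAs. Examples are let-7a, let-7f, miR-29a and miR-27a, whose guides held 2.62%, 1.94%, 1.86% and 1.05%. In 2 pairs both strands were above background on all 4 arrays. The signal of miR-31 was 3.89-fold that of miR-31* (log2 star over guide -1.96 ± 0.63, SD, n = 4) and was higher on every array. For miR-140, a cartilage miRNA whose hairpin lies in Wwp2, the log2 of star over guide was 0.06 and -0.74 in 20% O2 and 0.19 and -0.64 in 3% O2. The star signal was thus higher on both arrays of replicate 1 and lower on both of replicate 2 (mean -0.28 ± 0.47, SD, n = 4).

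In 1 pair the star was above background on all 4 arrays and had a higher signal than the named guide on each of them. miR-299* had signals of 174.9 and 62.2 in 20% O2 and of 172.9 and 154.4 in 3% O2, while miR-299 had 18.8 and -1.10, and 20.3 and 12.2. The guide was above background on 3 of the 4 arrays. When 20% O2 replicate 2 was left out, 4 pairs met this rule on the other 3 arrays, among them miR-17* and miR-674*, which were below background on that array.

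Where names give arms rather than a guide, both arms were above background on all 4 arrays for 2 of 65 pairs. The 5p arm was so in 10 pairs and the 3p arm in 7. The signal of miR-199a-3p was above that of miR-199a-5p on every array, by 2.18-fold in the mean (log2 1.12 ± 0.44, SD, n = 4), but the probes of miR-199a-5p themselves differed by 7.37-fold, so the order of the arms is not shown. For miR-337 the log2 of 3p over 5p was -0.44 ± 0.60. miR-125b-5p, miR-151-5p, miR-296-5p and miR-345-5p were above background on all 4 arrays with the 3p arm on none. The reverse held for miR-202-3p, miR-331-3p, miR-342-3p and miR-675-3p. The last comes from the imprinted noncoding RNA H19, which is active in fetal mesoderm, and its share was 0.0353%.

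The label of these cells was set against lists of lineage miRNAs drawn from textbook knowledge. The mesenchyme list had 30 of its 33 miRNAs above background on all 4 arrays (90.9%, against 19.8% of all 611) and the other 3 (miR-145, miR-222 and miR-335-5p) on some. It held 54.9% and 46.7% of the signal in 20% O2 (replicates 1 and 2), and 53.5% and 55.6% in 3% O2. Besides the leading miRNAs it took in miR-143 (0.34%), a miRNA of smooth muscle and fibroblasts, and miR-31 (0.26%). The members of the Hox clusters, which mark position along the body axis, were above background on all 4 arrays as well, with mean shares of 0.11% for miR-10b, 0.093% for miR-10a, 0.078% for miR-196a and 0.043% for miR-196b. Of these, miR-10a, miR-196a and miR-196b had signals below the brightest viral probe on every array. miR-10b exceeded that probe on 20% O2 replicate 1 only. The miRNAs of this list were thus above background on all or some of the arrays, the dim ones by the software's mark only. However, the list was chosen with results of these data known, so these counts are a description and do not test the label.

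The other 11 lists were of other lineages or states. Of their miRNAs, 86 (81.1%, against 57.6% of all 611) were above background on none of the arrays, 16 on 1 to 3 and 4 on all 4. Their summed share was 1.82% and 1.502% in 20% O2, and 0.933% and 0.993% in 3% O2. Most of it came from miR-34b-5p and miR-34c.

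Muscle, epithelium, pancreas, red blood cells and endothelium had no miRNA above background on any array. For skeletal and heart muscle these were miR-1, miR-133a, miR-133a*, miR-133b, miR-206, miR-208a, miR-208b and miR-499, with no signal over 2.58. For epithelium they were miR-200a, miR-200b, miR-200c, miR-141, miR-429, miR-205, miR-203, miR-183, miR-96 and miR-182, with no signal over 4.61. The pancreas miRNAs miR-375, miR-216a, miR-216b and miR-217 had no signal above 0. The red cell miRNAs miR-451, miR-144 and miR-486 and the endothelial miR-126-3p and miR-126-5p had none over 4.29 and 6.597. The negative control spots had a 95th percentile of 4.25 to 6.83 and a highest signal of 6.88 to 10.8 on the 4 arrays. Each of these miRNA signals was below the highest control spot of its array. miR-126-3p exceeded the 95th percentile of the control spots on both arrays of replicate 1. The control values are those of single spots, while a miRNA's signal is a mean over spots, so their ranges cannot be compared directly. The range of such means for probes with no target was not computed, so no limit of detection is set here. Signals not above background do not show that no molecule was there.

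For liver, kidney and gut, miR-122 and miR-215 were above background on none of the arrays, while miR-192 and miR-194 were so on both arrays of replicate 1 with signals of 7.94 to 17.6. Among 22 miRNAs of pluripotent stem cells, 20 were above background on none, against 57.6% of all 611 mouse miRNAs. These included the whole miR-302/367 cluster, all of miR-291 to miR-293 and miR-295, and miR-290-3p. The highest signal among the 20 was 12.0, for miR-290-3p on 20% O2 replicate 2, above the highest negative control spot of that array (10.8). miR-290-5p was so on both arrays of replicate 1, and miR-294 on 20% O2 replicate 2 alone, with a signal of 15.5 against 1.78 to 3.11 on the others.

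The nervous system list had 11 of 17 miRNAs above background on none, against 57.6% of all 611 mouse miRNAs. Among the 11 were miR-9, miR-124, miR-137, miR-138 and miR-153. miR-212 was above background on all 4 arrays, with shares of 0.151% and 0.111% in 20% O2 and of 0.117% and 0.0764% in 3% O2. Its cluster partner miR-132 was so on 3. Both are induced by activity in neurons and also occur in other cells. miR-9*, miR-128, miR-129-3p and miR-219 were above background on 2 or 3 arrays, with no signal over 24.5.

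Among blood cell miRNAs, the myeloid miR-223 was above background on all 4 arrays with signals of 26.0 and 14.9 in 20% O2, and 28.3 and 24.2 in 3% O2. These were below the brightest viral probe on every array. miR-142-3p was above background on 3 arrays, and the lymphoid miR-150 and miR-142-5p on none. Of the immune activation miRNAs, which fibroblasts can also induce, miR-146b was so on 3 arrays with a highest signal of 68.6, and miR-155 and miR-146a on 2, with none over 14.9. The part of other cells in the signal of miR-223 was not tested.

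The list for testis and ciliated cells was split. The 3 miR-449 members and the X-linked miRNAs were above background on none of the arrays, except miR-878-3p on 2. The miR-34b/c cluster on chromosome 9, also a p53 target, was above background. miR-34b-5p held 0.862% and 0.777% in 20% O2 and 0.323% and 0.425% in 3% O2, and miR-34c held 0.505% and 0.507% against 0.189% and 0.351%. For both, the arrays in 20% O2 lay above those in 3% O2, a lack of overlap that 77 of the 235 miRNAs tested between the oxygen levels had (32.8%).

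**Figure D4:**
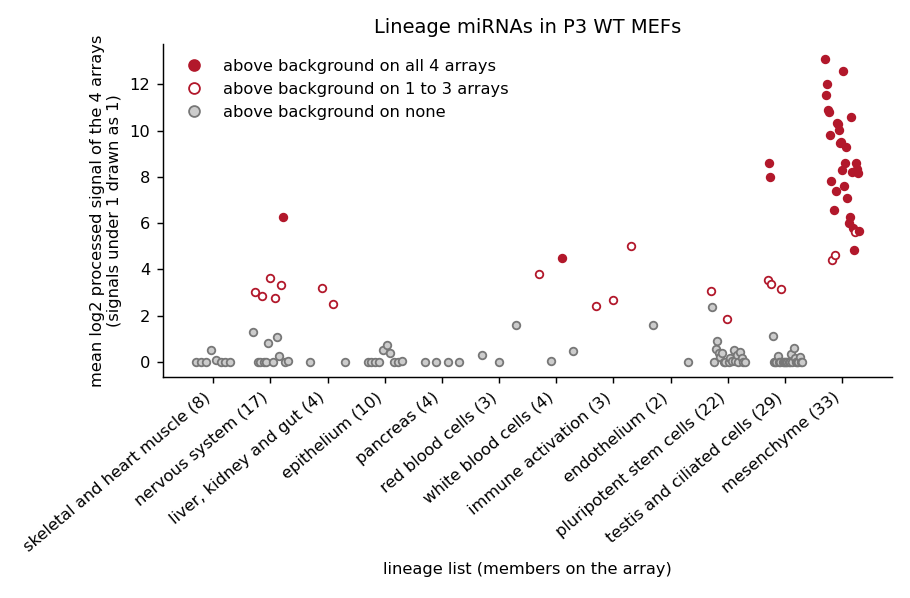
Mean log2 processed signal over the 4 P3 WT arrays (vertical axis, signals under 1 drawn as 1) of each miRNA of 12 lineage lists (horizontal axis, with the members on the array). Filled red points were above background on all 4 arrays, open red points on 1 to 3 and grey points on none: the mesenchyme list has 30 of 33 filled, and muscle, epithelium, pancreas, red blood cells and endothelium have none in red.

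The last comparison asks which of these miRNAs differ between the 2 oxygen levels, 3% being nearer to that of tissue and 20% that of standard culture. The model was limma on all 16 arrays with 1 mean for each group, after scaling arrays to an equal mean of the log2 signals of the 57 miRNAs detected on every array, with p-values adjusted over the 235 miRNAs tested (Benjamini-Hochberg). None passed an adjusted p of 0.05 (0 of 235, or 0%), and 2 had an unadjusted p under 0.05. With 2 arrays a level, the levels did not overlap for 77 of the 235 miRNAs (32.8%), so a lack of overlap alone says little about any of them.

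miR-210, the miRNA induced by hypoxia-inducible factors, had the smallest p. Its processed signal was 153.4 and 25.1 in 20% O2 (replicates 1 and 2), and 1338 and 1026 in 3% O2. Its share was 0.132% and 0.0884% in 20% O2, and 1.30% and 1.41% in 3% O2, and its ranks were 83 and 92, and 18 and 19. Both arrays in 3% O2 lay far above both in 20% O2. The scaled level was 10.697-fold higher in 3% O2 (log2 of 20% over 3% -3.42, SE 0.71, adjusted p = 0.105 by limma). Within slides the log2 difference was -3.16 (replicate 1) and -3.68 (replicate 2). With the slide, which coincides with the replicate number, as a block in the same limma model, the adjusted p was 0.0218. The call thus changed with the block, and it also changed with some other settings given in the last section. The block cannot change the size of the difference, since each group has 1 array of each replicate number, so the equal size shows nothing about its stability.

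miR-34b-3p was the other miRNA with an unadjusted p under 0.05. Its scaled log2 signal was 3.93 and 5.07 in 20% O2 against 2.58 and 1.80 in 3% O2, a difference of 2.31 (SE 0.68, adjusted p = 0.679 by limma). It was above background on the 2 arrays of replicate 1 only. The other members of this p53-induced group had differences in the same direction on both slides, none of them called. They were 1.37 (SE 1.05) for miR-34b-5p, 1.20 (SE 1.21) for miR-34c, 1.23 (SE 0.85) for miR-34c* and 0.69 (SE 1.12) for miR-34a. These miRNAs share a seed or a transcript and are not independent of each other.

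The next smallest p-values belonged to miR-140* (-1.01, SE 0.51), miR-130b (-1.22, SE 0.65) and let-7d* (2.26, SE 1.20), each with an adjusted p of 1. That of let-7d* rested on 20% O2 replicate 2, and without this array its difference was 0. No miRNA was above background on both arrays of 1 oxygen level and on neither of the other.

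Among the 25 miRNAs of highest share, the log2 difference of 20% over 3% O2 ran from -0.22 to 0.97 with SEs of 0.52 to 1.51 and a median of 0.18, against 0.11 over all tested. The levels did not overlap for 8 of the 25 (32%), 7 of them higher in 20% O2. The largest was miR-720, with 0.04 on the slide of replicate 1 and 1.91 on that of replicate 2. For miR-21 the difference was 0.18 (SE 0.85), and for miR-125b-5p 0.09 (SE 0.75). With such errors the lack of a call does not show that the abundant miRNAs were alike at both oxygen levels.

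**Figure D5:**
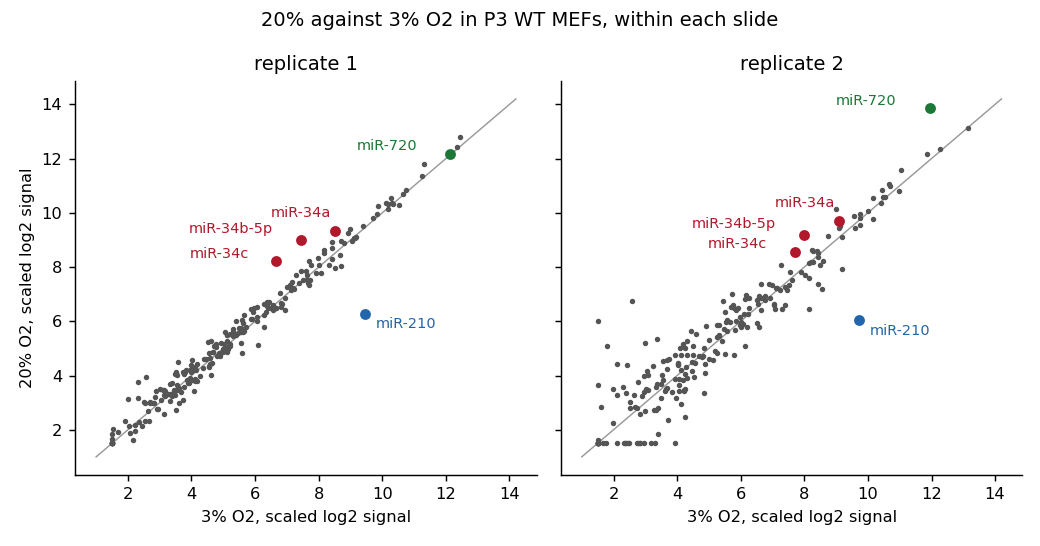
Scaled log2 signal in 20% O2 (vertical axis) against 3% O2 (horizontal axis) of the 235 tested miRNAs in P3 WT MEFs, with 1 panel for each replicate (slide) and the line of equality. miR-210 lies furthest below the line in both panels (-3.16 and -3.68), the miR-34 members lie above it in both, and miR-720 lies 0.04 above it in replicate 1 and 1.91 in replicate 2.

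Most of this repertoire was above background on at least 1 array of each other group of MEFs, and a smaller part on all 4. Of the 121 miRNAs, 115 (95.04%) were above background on all 4 P3 Ercc1-/- arrays, 88 (72.7%) on all 4 P7 WT arrays and 58 (47.9%) on all 4 P7 Ercc1-/- arrays. As a share of the other lists, these were 67.3% of 171, 71.5% of 123 and 64.4% of 90. The number of P3 WT miRNAs above background on none of the other group's arrays was 2, 1 and 3. Of the 10 highest miRNAs, 8 were among the 10 highest of P3 Ercc1-/- MEFs, 7 of P7 WT MEFs and 4 of P7 Ercc1-/- MEFs. Counts on all 4 arrays move with the brightness of the dimmest array, as in the P3 WT set, and the differences between groups were not tested.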

How the data were processed

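Total RNA was end-labelled with Cyanine 3 and hybridised to Agilent mouse miRNA arrays (V2), 1 sample an array. The intensity values (processed signal) were deposited as made by the authors with Agilent Feature Extraction (version 10.7.1.1 per the file headers), background-subtracted and not scaled between arrays. The deposited series table, also intensity, was used as an alternative only. Control and outlier spots were left out. Processed signals were averaged over spots of a probe and over probes of a miRNA. Shares are percent of the summed signal above background on an array. Seeds are bases 2 to 8 of RefSeq sequences, and hairpins within 10 kb form a cluster. Ranks of signal depend on probe affinity, and the number of arrays limits the precision.

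The oxygen levels were compared with limma 3.58.1 (R 4.3.3) on all 16 arrays in 8 groups of 2, with signals floored at 2.82 after scaling and tests limited to miRNAs that both arrays of some group had above background. The script was tested on simulated data. Alternatives changed the signal summary, the detection rule, the scaling, the floor, the filter, the block and the arrays used. The normexp alternative, with no offset added, took median spot and background signals in place of the planned means. Replicate numbers came from the labels. Same-numbered arrays deviated together (correlation over 0.1) in 19 of 28 pairs of groups. The main model still had no replicate block, because the study's methods do not use one. The block was run as an alternative. Since the labels do not name separate cultures for each array, p-values measure the spread between these samples. The members, gene lists and tests were chosen with earlier results of these data known. The text names the 25 miRNAs of highest mean share, list members by counts with up to 4 values, strand pairs at the extremes, the 5 brightest clusters, miR-210 and the 5 smallest p-values between oxygen levels.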

Additional observations from a re-analysis of the deposited data

Results flagged for a closer look

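Over the 4 P3 WT arrays, 42 values were screened for an array far from the other 3 (Dixon's test, over both oxygen levels), and 3 were found, where chance gives about 1 in 20. The share of miR-720 was 20.1% on 20% O2 replicate 2 against 6.66% to 8.41% on the others, which is also the array with the least summed signal (28336). The share of miR-23b was 1.15% on 20% O2 replicate 1 against 0.926% to 0.951%. The summed share of the miR-17, miR-20, miR-93 and miR-106 family was 0.264% on the same array against 0.199% to 0.205%.

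Outside the mouse miRNAs, 2 of the 39 viral miRNAs were above background on all 4 arrays. Probes for mcmv-miR-M23-1-5p gave signals of 121.9 and 44.4 in 20% O2 and of 100.4 and 72.8 in 3% O2, and those for mcmv-miR-m88-1 gave 69.9 and 17.3, and 59.9 and 29.9. The highest negative control spot reached 6.88 to 10.8. The source of these signals was not tested.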

How the results depend on the processing

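The 10 highest miRNAs and their summed share held under all settings tried: at least 9 of the 10 stayed, with mean shares of 52.0% to 57.4%. The let-7 share moved beyond its SD to 12.4% with the software's total signal and to 16.3% without miR-720, which was added after seeing the data. The 121 miRNAs on all 4 arrays became 109 to 145 under other detection rules and 62 (99 in place of 259 on any array) when they had to exceed the brightest viral probe, also added later. Leaving out each array in turn gave 121 to 204, all of the rise from 20% O2 replicate 2, and 251 to 259 on any array. It gave shares of 52.5% to 56.1% for the 10 highest and of 13.8% to 15.0% for let-7. Pairs with the star on all arrays and above the guide numbered 2 with the total signal and 2 with the software's detection call, and 1 to 4 without an array. In 20% against 3% O2, 1 miRNA (miR-210, higher in 3% O2) was called in place of 0 with the replicate block, with scaling to the mean of all mouse miRNAs or to their 75th percentile, with normexp, with only the 121 miRNAs tested, and by the methods' t-test before adjustment (0 after it); leaving out an array gave 0 to 0. The blocked adjusted p was 0.0218, and the adjusted p without the block ran from 0.0131 to 1. Its log2 difference ran from -4.24 to -3.18. The median of all miRNAs moved from 0.11 to between -0.65 (no scaling) and 0.31 (normexp). Relative to that median, the difference of miR-210 ran from -3.68 to -3.30. The pairing changed no other call. That of let-7d* moved to 0 without 20% O2 replicate 2. Dim signals limit every count of detected miRNAs.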
